A study of Mus musculus with 12 samples.

Results

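The 7 enzymes described here shape long-chain fatty acids in mouse liver: the desaturases Fads2, Fads1 and Scd2, the elongases Elovl5, Elovl2 and Elovl3, and the acyltransferase Lpcat3. They were taken by symbol from a table of read counts for 55359 genes. All 7 were found, and all 7 passed the filter on low counts that left 15274 genes for testing. The members were not picked by a threshold on these libraries, but they were chosen with earlier results of these data known. The libraries came from whole liver of 12 male C57BL/6NTac mice, 4 in each of 3 groups. The lean group was on normal chow and received a Control-mRNA. The HFD control group was on high-fat diet (HFD) and received an mRNA that the labels also call Control-mRNA. The NM-FGF19 group was on high-fat diet and received an mRNA named NM-FGF19, where FGF19 is a hormone of the human intestine that represses bile acid synthesis in liver. All 3 groups thus share weekly dosing with mRNA in lipid nanoparticles (LNPs), over 6 weeks, with sampling of the liver 24 hours past the final injection. Diets ran for 21 weeks before dosing, the labels give 28 weeks of feeding in all, and the series description calls the mice 24 weeks old. Which cells took up the particles is not given. The deposited columns of the HFD control group carry the name mOX40L, whereas the labels say Control-mRNA, so whether lean and HFD control mice received an identical mRNA is not settled here. Later mentions of the diet comparison, or of changes on the diet, mean HFD control against lean, in which the mRNA may differ as well. In NM-FGF19 against HFD control the mRNA of the HFD control group is unsettled in the same way.

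Mammals cannot make linoleic and alpha-linolenic acid, and liver converts these dietary fats into longer and more unsaturated ones in alternating steps. Fads2 adds the opening double bond, Elovl5 lengthens the chain, and Fads1 adds the next double bond to give arachidonic and eicosapentaenoic acid. Elovl2 carries out the later elongations on the way to docosahexaenoic acid, and Lpcat3 places polyunsaturated chains into phospholipids. Elovl3 and Scd2 work on saturated and monounsaturated chains. The liver genes for several of these enzymes are known targets of the lipogenic factor SREBP-1c and of the sterol receptor LXR.

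Library totals ran from 23743415 to 33257260 counts, and TMM composition factors from 0.779 in lean 3 to 1.17. Levels are given as CPM, which set counts against those scaled totals. Lean 3 and HFD control 3, known from earlier work on these libraries to lie far from their groups, were left out together as an alternative. The 10 hepatocyte markers, all expressed, summed to 76894 to 90669 CPM in lean, 46618 to 68002 in HFD control and 81405 to 126849 in NM-FGF19 libraries. Of these, edgeR called 0 of 10 in each comparison, with 3 at an unadjusted p below 0.05 each time. The share of all genes at such a p was 24.6% for HFD control against lean, 8.95% for NM-FGF19 against HFD control and 16.7% for NM-FGF19 against lean. In whole liver, fewer cells of a type and less RNA per cell cannot be told apart. Each sample is taken to be a separate mouse, and p-values measure the spread between these samples.

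Per exon length, on the RPKM scale, Fads2 stood highest of the 7 in each group, with mean levels of 165 RPKM in lean, 207 in HFD control and 320 in NM-FGF19. In lean livers the order after Fads2 was Elovl3 at 153, Fads1 at 132, Elovl5 at 105 and Elovl2 at 99.6 RPKM. In HFD control livers it was Elovl2 at 120, Elovl5 at 106, Elovl3 at 95.3 and Fads1 at 75.2 RPKM. In NM-FGF19 livers it was Elovl2 at 209.6, Fads1 at 161, Elovl5 at 113 and Elovl3 at 75.8 RPKM. Neighbours by mean among these 5 overlapped in their library ranges in each group, so the order of neighbours is not resolved. Genes farther apart could separate, as Fads2 (151 to 280 RPKM) and Fads1 (62.6 to 90.0 RPKM) did in HFD control livers. Lpcat3 followed at 22.5, 35.0 and 30.4 RPKM, and Scd2 was lowest at 3.02, 5.47 and 3.26 RPKM. Scd2 lay below the range of Lpcat3 in each group. Lpcat3 overlapped Elovl3 in NM-FGF19 libraries and in HFD control libraries, where HFD control 3 read 23.7 RPKM of Elovl3. Lpcat3 lay below the ranges of the remaining genes in each group.

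**Figure D1:**
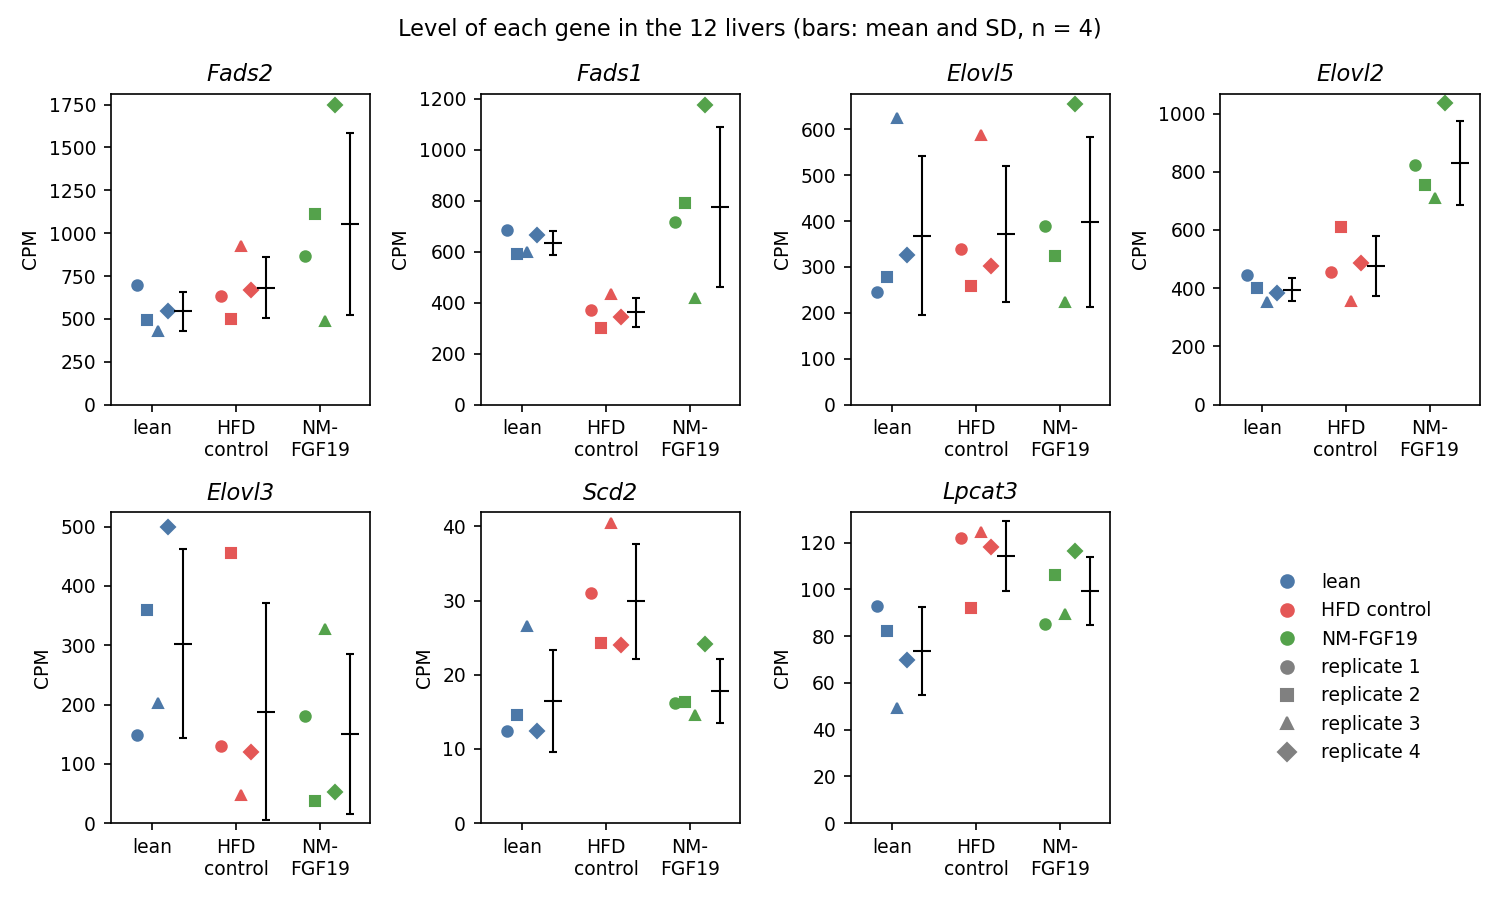
Level of each of the 7 genes in CPM (vertical axis from 0) in the 12 livers, grouped by condition on the horizontal axis, with the replicate number as the marker shape. Bars give the mean and SD of 4 libraries: Elovl2 lay between 711 and 1035 CPM in NM-FGF19 livers, above the other 8 libraries, and Elovl3 spread from 38.0 to 499.9 CPM.

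The opening desaturase, Fads2 (ENSMUSG00000024665), is the gateway enzyme of the pathway. RefSeq gives its promoter window on mouse build GRCm38.p6 at chr19:10101454-10101753, minus strand. Windows here run from 250 bases before to 50 bases after a transcript start, which is 300 bases. It is shown because Fads2 had the highest mean level per exon length and because Fads1, its neighbour in the genome, moved with it between mice. Capitals would mark CCAAT (the box bound by NF-Y), CACGTG (an E-box), AGGTCA (a nuclear receptor half-site) or TCACNCCAC (an SREBP element), each searched on both strands. No matches in the windows printed here overlapped each other.
Fads2 promoter: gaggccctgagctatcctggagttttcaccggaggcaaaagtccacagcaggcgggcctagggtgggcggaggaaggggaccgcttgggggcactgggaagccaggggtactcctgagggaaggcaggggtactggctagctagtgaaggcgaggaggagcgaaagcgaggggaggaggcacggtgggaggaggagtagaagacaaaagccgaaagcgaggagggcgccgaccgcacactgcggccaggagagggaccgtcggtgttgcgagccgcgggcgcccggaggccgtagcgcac
None of the 4 motifs occurred in these 300 bases, of which 67% are G or C against a median of 52.7% over 32851 promoters. Of all those promoters 37.4% held CCAAT, 7.15% CACGTG, 16.3% AGGTCA and 1.24% TCACNCCAC. The table of promoters matched 4 of the 7 genes: Fads2, Elovl2, Elovl5 and Lpcat3.

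Fads2 read 699, 496, 430.3 and 549 CPM in the lean livers, 632, 498, 924 and 669.8 CPM in HFD control livers, and 868, 1115, 487 and 1749 CPM in NM-FGF19 livers. The groups overlapped in all 3 comparisons. NM-FGF19 3 sat among the lean libraries, while NM-FGF19 2 and NM-FGF19 4 exceeded all lean and HFD control libraries. The means were 544 ± 115, 681 ± 178 and 1055 ± 530 CPM (SD, n = 4). Fads2 had a log2 change of 0.32 ± 0.32 (SE) for HFD control against lean, 0.63 ± 0.32 for NM-FGF19 against HFD control and 0.96 ± 0.32 for NM-FGF19 against lean. Benjamini-Hochberg adjusted p-values from edgeR's quasi-likelihood test were 0.584, 0.611 and 0.151, so Fads2 passed the threshold of 0.05 in no comparison. With lean 3 and HFD control 3 both left out, the diet change of Fads2 became 0.0682, and without HFD control 3 alone it became 0.14. Without NM-FGF19 4, the highest library, the changes against HFD control and lean became 0.27 and 0.60.

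Fads1 (ENSMUSG00000010663), which makes the last desaturation before arachidonic acid, read 685, 589.7, 599 and 664 CPM in lean livers. It read 369, 301, 433 and 343 CPM in HFD control livers and 715, 792, 417 and 1177 CPM in NM-FGF19 livers. All 4 HFD control libraries lay below all 4 lean libraries, and 3 of the 4 NM-FGF19 libraries lay above every HFD control library. NM-FGF19 3 was the exception, at 417 CPM against 433 CPM in HFD control 3. Means were 635 ± 47.3, 362 ± 55.2 and 775 ± 313 CPM (SD, n = 4).

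The log2 change of Fads1 was -0.81 ± 0.24 (SE) for HFD control against lean, a 1.75-fold lower level, with an edgeR adjusted p of 0.0576. For NM-FGF19 against HFD control it was 1.10 ± 0.25, a 2.14-fold higher level, with an edgeR adjusted p of 0.0851. For NM-FGF19 against lean it was 0.29 ± 0.24, with an edgeR adjusted p of 0.597, and it became 0.50 without NM-FGF19 3 and 0.0164 without NM-FGF19 4. Fads1 passed the threshold in none of them. Both of these comparisons use the same 4 HFD control libraries. Single libraries moved these adjusted p-values across the threshold: leaving out NM-FGF19 3 gave edgeR adjusted p-values of 0.0224 for the diet comparison and 0.00623 for NM-FGF19 against HFD control, and leaving out NM-FGF19 4 gave 0.0252 for the diet comparison. NM-FGF19 libraries are not part of the diet comparison and enter it only through the shared fit. Its log2 change stayed at -0.79 and -0.81 in those 2 fits. With only the 2 groups in the fit the edgeR adjusted p was 0.0213, and without HFD control 1 it was 0.133.

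Between mice of a group, Fads1 and Fads2 moved together. The Pearson correlation of their deviations from the group means, on the log2 CPM scale, was 0.964 over 12 libraries, against 0.616 for the levels across all libraries. These points share library depth and composition scaling, and the values are a description. In the RefSeq gene order Fads3, Fads2 and Fads1 lie side by side. Fads3, a homologue with a much lower level, read 13.2 CPM in lean, 11.8 in HFD control and 23.9 in NM-FGF19 livers on average. Its log2 changes were -0.16 ± 0.34, 1.02 ± 0.34 and 0.86 ± 0.34 (SE), with edgeR adjusted p-values of 0.812, 0.341 and 0.224.

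The ratio of the desaturases separated the 3 groups without overlap. The share of all gene pairs that do so was not computed, for this or any other ratio here. Fads1 alone already lay lower without overlap in HFD control than in lean, as did 6.89% of all genes tested. The ratio of Fads1 to Fads2 counts within a library was 0.980, 1.19, 1.39 and 1.21 in lean livers, 0.585, 0.604, 0.469 and 0.513 in HFD control livers, and 0.824, 0.710, 0.856 and 0.673 in NM-FGF19 livers. Lean was highest, HFD control lowest and NM-FGF19 between them, in every library. On the log2 scale the means were 0.24 ± 0.21, -0.89 ± 0.17 and -0.39 ± 0.17 (SD, n = 4). The ratio was 2.19-fold lower in HFD control than in lean, 1.41-fold higher in NM-FGF19 than in HFD control and 1.55-fold lower in NM-FGF19 than in lean. Each gave a 2-sided exact permutation p of 0.0286, the smallest that the 70 assignments of 4 against 4 libraries allow. After adjustment over the 15 ratio tests (5 gene pairs in 3 comparisons) it was 0.107, so none passed 0.05.

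**Figure D2:**
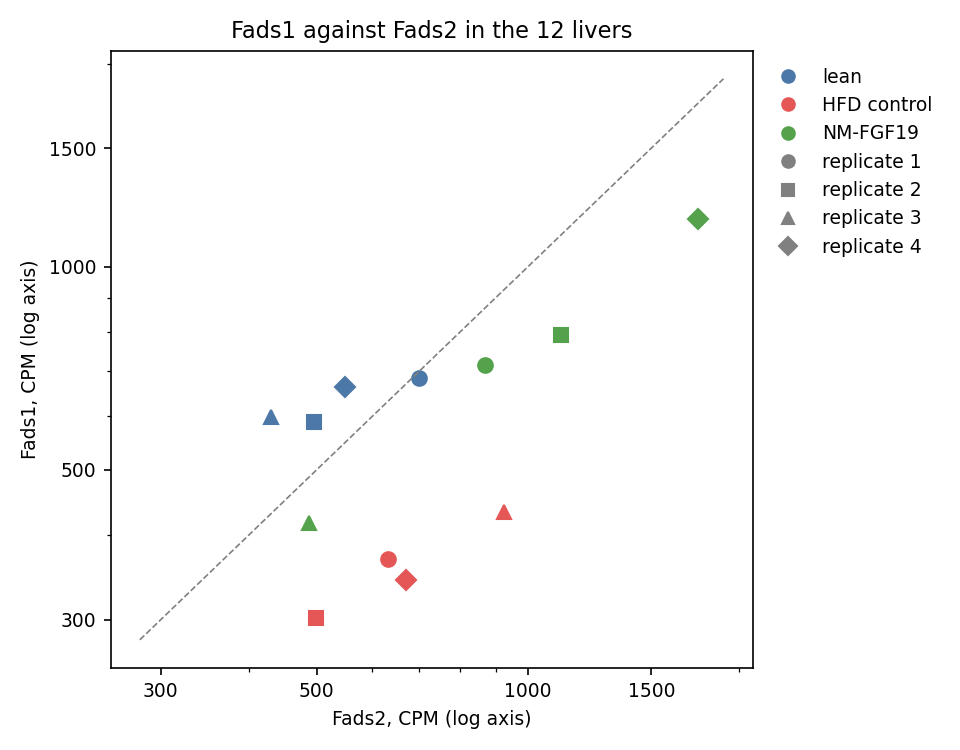
Fads1 against Fads2 in CPM, both on log axes, with 1 point per liver, colour for the group and shape for the replicate number. The dashed line marks equal CPM: 3 of the 4 lean livers lie above it, and the HFD control livers, at 0.469 to 0.604 Fads1 counts per Fads2 count, lie farthest below it.

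Elovl5 (ENSMUSG00000032349) lengthens the chains that Fads2 has desaturated. Its RefSeq promoter window on GRCm38.p6 is at chr9:77917115-77917414, plus strand, and is shown as 1 of the 2 that held searched motifs. Capitals mark CCAAT or its reverse complement, 2 matches starting 71 and 17 bases before the transcript start, and CACGTG, 1 match starting 161 bases before it.
Elovl5 promoter: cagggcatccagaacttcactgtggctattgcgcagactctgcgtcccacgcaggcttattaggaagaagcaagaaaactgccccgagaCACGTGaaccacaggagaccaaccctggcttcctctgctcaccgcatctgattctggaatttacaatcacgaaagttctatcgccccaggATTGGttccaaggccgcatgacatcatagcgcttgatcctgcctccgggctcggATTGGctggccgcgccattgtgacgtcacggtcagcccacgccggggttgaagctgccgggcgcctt
A match describes these letters and does not show a bound site.

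Elovl5 read 246, 278, 624 and 325 CPM in lean livers, 339, 258, 588 and 303 CPM in HFD control livers, and 389.9, 324, 223 and 655 CPM in NM-FGF19 livers. Lean 3, HFD control 3 and NM-FGF19 4 stood far above the rest, and the groups overlapped throughout. The log2 changes were 0.01 ± 0.38, 0.10 ± 0.38 and 0.11 ± 0.38 (SE), with edgeR adjusted p-values of 0.988, 0.979 and 0.917. The intervals of ± 1.96 SE reached from -0.72 to 0.75 for HFD control against lean and from -0.64 to 0.84 for NM-FGF19 against HFD control. With lean 3 and HFD control 3 both left out, the last 2 changes became 0.40 and 0.51, and on library totals alone the change against HFD control became -0.04. None of these settings brought Elovl5 past the threshold.

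Elovl2 (ENSMUSG00000021364), the elongase of the longest polyunsaturated chains, was the only member that passed the threshold. Its promoter window is shown for that reason. RefSeq lists 2 windows on GRCm38.p6, at chr13:41220354-41220653 and chr13:41220113-41220412, both on the minus strand, and the former is printed.
Elovl2 promoter: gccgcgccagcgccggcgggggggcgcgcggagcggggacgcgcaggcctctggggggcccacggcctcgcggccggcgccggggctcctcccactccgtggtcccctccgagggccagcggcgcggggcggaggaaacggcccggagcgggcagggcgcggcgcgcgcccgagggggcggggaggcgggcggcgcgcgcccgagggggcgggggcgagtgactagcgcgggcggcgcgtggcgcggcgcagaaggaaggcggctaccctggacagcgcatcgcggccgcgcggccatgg
Its G and C content was 84.7%, and neither window held any of the 4 motifs.

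Elovl2 read 446, 399, 351 and 384 CPM in lean livers, 457, 609, 356 and 485 CPM in HFD control livers, and 825, 754, 711 and 1035 CPM in NM-FGF19 livers. All 4 NM-FGF19 libraries lay above all 8 others, while lean and HFD control overlapped. Means were 395 ± 39.4, 477 ± 104 and 831 ± 144 CPM (SD, n = 4). Elovl2 was 2.10-fold higher in NM-FGF19 than in lean livers, a log2 change of 1.07 ± 0.18 (SE) with an edgeR adjusted p of 0.0153. The call was kept under each of the 23 alternatives run, with adjusted p-values from 8.23e-07 to 0.0446. Against HFD control the log2 change was 0.80 ± 0.18, with an edgeR adjusted p of 0.0850, so it did not pass there; without HFD control 2, the highest library of that group, the adjusted p was 0.0438. For HFD control against lean it was 0.27 ± 0.18, with an edgeR adjusted p of 0.383, and 0.13 without HFD control 2.

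Elovl2 was also among the steadier of the 7. The SD of its log2 CPM within groups was 0.243, and 54.6% of 11560 genes (mean level 2 CPM or more) had a larger one. The ratio of Elovl2 to Elovl5, which act on successive substrates, was 1.95-fold higher in NM-FGF19 than in lean livers, with an exact permutation p of 0.0571 and overlapping groups. In HFD control against lean the log2 difference of that ratio was 0.21, with an exact permutation p of 0.657, and it turned to -0.13 without lean 3 and to -0.0680 without HFD control 2. The difference between NM-FGF19 and lean, 0.96 on the log2 scale, became 0.62 without lean 3.

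Elovl3 (ENSMUSG00000038754) elongates saturated and monounsaturated chains and is known in mouse liver as a gene with a daily rhythm and higher expression in males. It read 148, 359.8, 203 and 499.9 CPM in lean livers, 130.1, 456, 46.7 and 119.7 CPM in HFD control livers, and 181, 38.0, 328 and 52.3 CPM in NM-FGF19 livers. Within a group the highest library exceeded the lowest by 3.37-fold in lean, 9.77-fold in HFD control and 8.62-fold in NM-FGF19, and all groups overlapped. The within-group SD of its log2 CPM was 1.24, and 1.04% of genes had a larger one. The log2 changes were -0.69 ± 0.78, -0.33 ± 0.78 and -1.02 ± 0.79 (SE), with edgeR adjusted p-values of 0.647, 0.955 and 0.563, and none passed. Single libraries set these values: without HFD control 2 the changes were -1.61 for HFD control against lean and 0.60 for NM-FGF19 against HFD control, a turned sign, and without NM-FGF19 3 the changes against HFD control and lean were -1.06 and -1.73.

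Several clock genes moved with Elovl3, with Lpcat3 and, less closely, with Fads2 and Fads1. Arntl, the core activator of the circadian clock, read 0.959, 14.8, 33.5 and 35.3 CPM in lean livers, 3.28, 16.8, 2.30 and 1.88 CPM in HFD control livers, and 16.2, 1.85, 14.0 and 3.89 CPM in NM-FGF19 livers. The 6 livers with the highest Arntl, all at 14.0 CPM or more, were the 6 with the highest Elovl3, all at 181 CPM or more. The other livers had at most 3.89 CPM of Arntl and 148 CPM of Elovl3. Over the 12 libraries, deviations of Elovl3 from its group means correlated at 0.915 with those of Clock, 0.745 with Arntl, -0.565 with Dbp and -0.802 with Ciart, given as a description. Not all clock genes followed Elovl3, with 0.104 for Nr1d1 and -0.359 for Nr1d2. Deviations of Fads2 and Fads1 correlated with those of Clock at -0.801 and -0.672. The hour at which each liver was taken is not given in the sources used here.

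Of 15 clock genes edgeR called 0 in each comparison, with 2, 1 and 1 at an unadjusted p below 0.05, against 24.6%, 8.95% and 16.7% of all genes. With the difference of log2 Arntl and log2 Dbp as a covariate, a setting chosen after the data were seen, the log2 changes of Elovl3 became -0.26, -0.44 and -0.71. Fads2, whose deviations correlated at -0.789 with those of Elovl3, had 0.04, 0.65 and 0.69 under that covariate. Lpcat3 deviations correlated at -0.949 with those of Nfil3, 0.895 with Dbp, 0.837 with Per3, -0.827 with Npas2 and -0.795 with Arntl, but at -0.0593 with Per1. The changes of Lpcat3 became 0.44, -0.17 and 0.27 under the covariate. Elovl2 kept its call against lean, with a change of 1.06 and an edgeR adjusted p of 0.0330. The part of sampling time in these values was not tested. Of 11 genes known to be higher in male liver, Elovl3 among them, edgeR called only C6, lower in HFD control than in lean, where 3.29% of all genes were. In that comparison 5 of 11 were at an unadjusted p below 0.05, against 24.6% of all genes. Their median log2 change was -0.89, against -0.02 over all genes, with 1 of 11 positive. For NM-FGF19 against lean the median was -0.63. Of 5 tested genes higher in female liver edgeR called Cyp17a1, lower in HFD control than in lean, with 3 of 5 positive. In that comparison 5 of 5 were at an unadjusted p below 0.05, against 24.6% of all genes. Their log2 changes ran from -2.65 to 11.8 with a median of 3.86, against -0.02 over all genes. For NM-FGF19 against lean their median was 2.01, with 3 of 5 at an unadjusted p below 0.05, against 16.7% of all genes.

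**Figure D3:**
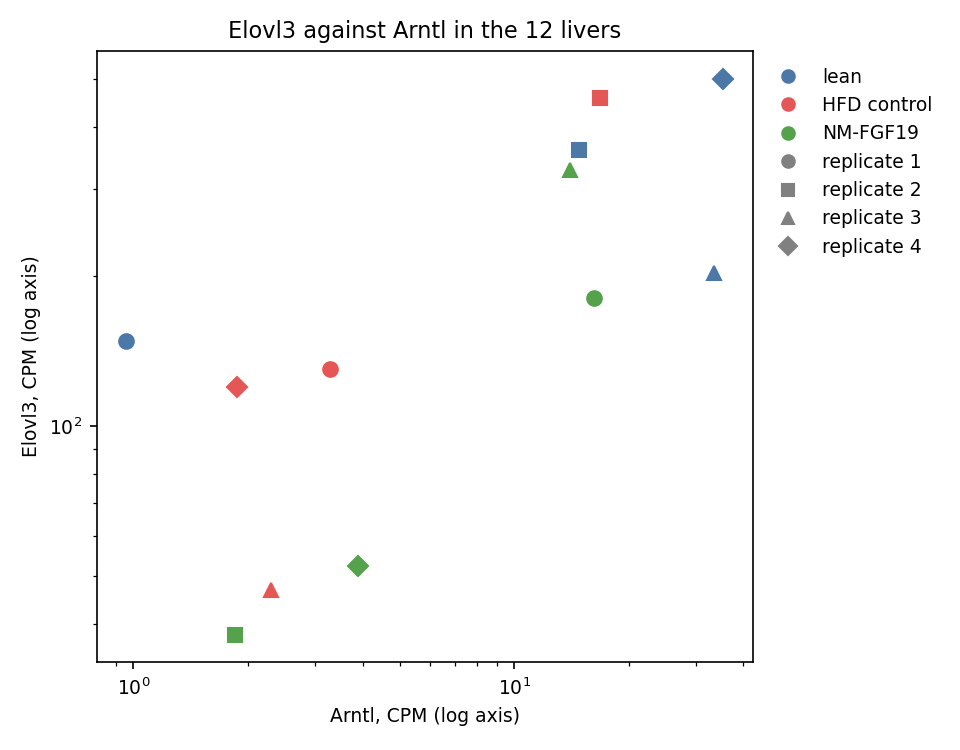
Elovl3 against Arntl in CPM, both on log axes, with 1 point per liver, colour for the group and shape for the replicate number. The 6 livers at the right, with Arntl of 14.0 CPM or more, are the 6 with Elovl3 of 181 CPM or more. They are lean 2, lean 3, lean 4, HFD control 2, NM-FGF19 1 and NM-FGF19 3, unevenly spread over the groups.

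Scd2 (ENSMUSG00000025203) introduces the double bond of monounsaturated fatty acids and is a minor form in adult liver beside Scd1. It read 12.4, 14.6, 26.6 and 12.4 CPM in lean livers, 31.0, 24.2, 40.4 and 24.0 CPM in HFD control livers, and 16.2, 16.3, 14.6 and 24.1 CPM in NM-FGF19 livers. HFD control was the highest group on average, at 29.9 ± 7.73 CPM against 16.5 ± 6.84 in lean and 17.8 ± 4.27 in NM-FGF19 livers (SD, n = 4), but lean 3 and NM-FGF19 4 reached into its range. The log2 change was 0.86 ± 0.26 (SE) for HFD control against lean, with an edgeR adjusted p of 0.0622. It was -0.75 ± 0.26 for NM-FGF19 against HFD control and 0.11 ± 0.26 for NM-FGF19 against lean, with edgeR adjusted p-values of 0.382 and 0.878. Scd2 passed in none of them. The change against lean in NM-FGF19 became 0.46 without lean 3 and -0.0667 without NM-FGF19 4. Without lean 3 the diet comparison gave an adjusted p of 0.0123, and with lean 3 and HFD control 3 both left out it gave 1.03 on the log2 scale and 0.0203.

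Scd1 was far more abundant, at 8470, 12569 and 3848 CPM in the lean, the HFD control and the NM-FGF19 livers. Its log2 changes were 0.57 ± 0.48, -1.71 ± 0.50 and -1.14 ± 0.49 (SE), with edgeR adjusted p-values of 0.517, 0.233 and 0.266. Scd2 amounted to 0.195%, 0.238% and 0.463% of Scd1 by mean CPM. Of the 5461 windows of 101 nt in Scd2 transcripts, 47 (0.861%) occur letter for letter in Scd1 or Scd3, and how the counting treated such reads is not given. With Scd1 at 8470 CPM in lean livers and Scd2 at 16.5, the small share of windows does not bound how many Scd1 reads Scd2 could hold, so the level of Scd2 and its changes are uncertain. In each group the library highest in Scd2 was also the highest in Scd1: lean 3 at 14435, HFD control 3 at 21462 and NM-FGF19 4 at 7093 CPM of Scd1. The part of Scd1 reads in the Scd2 values was not tested. The ratio of Scd2 to Scd1 was 2.63-fold higher in NM-FGF19 than in lean livers, with groups that did not overlap, an exact permutation p of 0.0286 and an adjusted value of 0.107 over the 15 ratio tests. Between mice, the deviations of Scd2 followed those of Elovl5, with a correlation of 0.915 over 12 libraries. The part of lean 3, HFD control 3 and NM-FGF19 4, each the highest of its group in both genes, was not tested there.

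Lpcat3 (ENSMUSG00000004270) joins polyunsaturated chains to lysophospholipids and sets how much arachidonate the membranes of liver cells hold. Its RefSeq promoter window on GRCm38.p6, at chr6:124662854-124663153 on the plus strand, is shown because it held the most motif matches of the windows found. Capitals mark CCAAT or its reverse complement, with 4 matches starting 202, 50 and 8 bases before and 28 bases after the transcript start.
Lpcat3 promoter: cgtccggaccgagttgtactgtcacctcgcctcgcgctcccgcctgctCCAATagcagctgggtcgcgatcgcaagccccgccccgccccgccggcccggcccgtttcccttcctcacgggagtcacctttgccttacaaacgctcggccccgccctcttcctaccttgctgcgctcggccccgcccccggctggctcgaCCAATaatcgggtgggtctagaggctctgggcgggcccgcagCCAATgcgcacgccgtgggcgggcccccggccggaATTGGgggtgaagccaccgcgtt
The other 3 motifs did not occur in it, and 71% of its bases are G or C.

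Lpcat3 read 92.8, 82.3, 49.1 and 70.03 CPM in lean livers, 122, 92.3, 125 and 118 CPM in HFD control livers, and 85.1, 106, 89.4 and 117 CPM in NM-FGF19 livers. Lean and HFD control overlapped by a narrow margin, lean 1 at 92.8 CPM against HFD control 2 at 92.3 CPM. Means were 73.6 ± 18.8, 114 ± 14.9 and 99.3 ± 14.7 CPM (SD, n = 4). The log2 change was 0.63 ± 0.18 (SE) for HFD control against lean, 1.55-fold, with an edgeR adjusted p of 0.0501, just outside the threshold. It was -0.20 ± 0.18 for NM-FGF19 against HFD control and 0.43 ± 0.18 for NM-FGF19 against lean, with edgeR adjusted p-values of 0.829 and 0.255.

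Leaving out lean 1, HFD control 2 or NM-FGF19 4 brought the diet change of Lpcat3 to adjusted p-values of 0.0269, 0.0332 and 0.0472, whereas leaving out lean 3 and HFD control 3 together gave 0.46 on the log2 scale and 0.138. With the clock covariate the diet change was 0.44, with an edgeR adjusted p of 0.0814. Transcripts of Lpcat3 share 234 of 3549 windows of 101 nt (6.59%) with those of Emg1. Emg1 averaged 45.9, 38.5 and 41.7 CPM, with log2 changes of -0.26, 0.12 and -0.14, none past the threshold. Mboat7, which places arachidonic acid on phosphatidylinositol, averaged 34.8, 37.1 and 42.5 CPM. Its log2 changes were 0.09 ± 0.09, 0.20 ± 0.09 and 0.29 ± 0.09 (SE), with edgeR adjusted p-values of 0.578, 0.563 and 0.128. The ratio of Lpcat3 to Mboat7 was 1.49-fold higher in HFD control than in lean and 1.32-fold lower in NM-FGF19 than in HFD control, each with an exact permutation p of 0.0571 and overlapping groups.

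**Figure D4:**
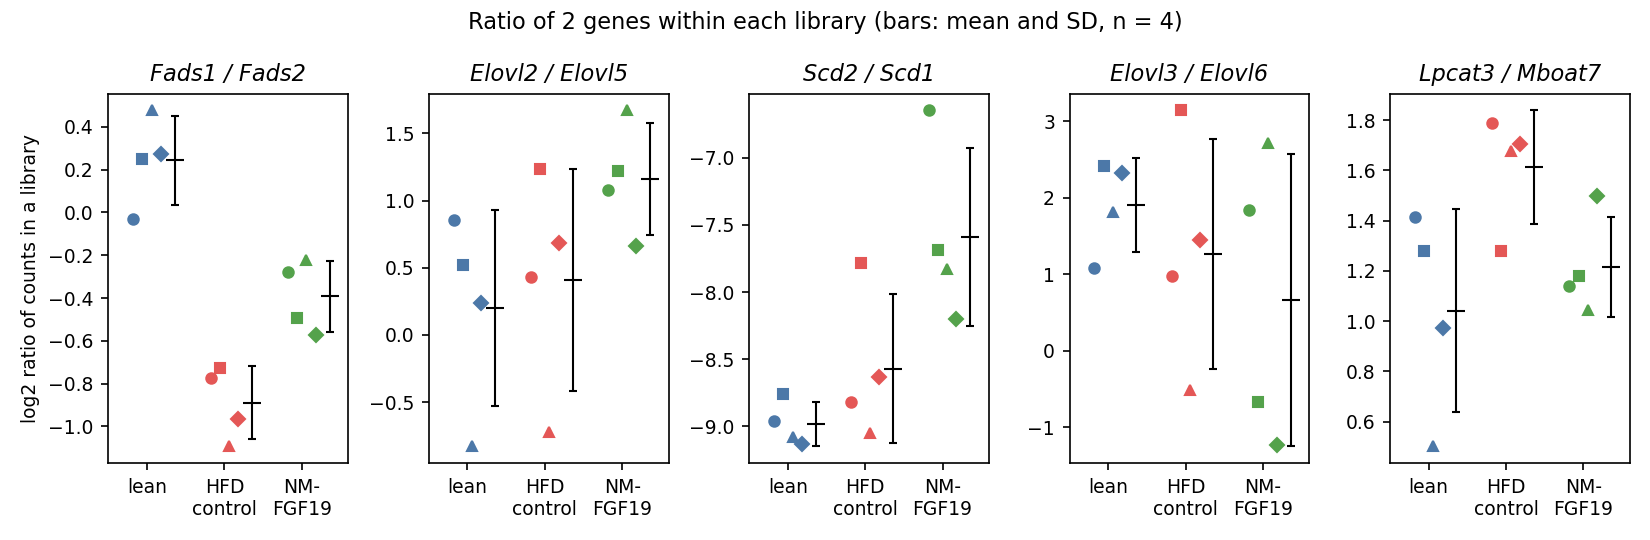
Log2 ratio of the counts of 2 genes within each library (vertical axes, not from 0), for 5 pairs in the 12 livers, with colour for the group and the same marker shapes for the replicate number as in the plot of levels by library. Bars give the mean and SD of 4 libraries: the Fads1 to Fads2 ratio separates the 3 groups, and the Elovl3 to Elovl6 ratio spreads widely within them.

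Set side by side, the comparison of HFD control with lean addresses the diet, in mice that both had an mRNA labelled Control-mRNA. Whether that mRNA was identical is not settled here. By edgeR 0 of the 7 passed in HFD control against lean, where 5.04% of all genes tested were called higher and 3.29% lower (8.33% in either direction). Lpcat3, Fads1 and Scd2 were at an unadjusted p below 0.05, 3 of 7 against 24.6% of all genes tested. DESeq2 called these 3, with Lpcat3 and Scd2 higher and Fads1 lower, and limma voom called Scd2 alone. Fads1 was the only member whose groups did not overlap, where 6.89% of all genes were lower and 8.4% higher without overlap. The median log2 change was 0.27 over the 7 and -0.02 over all genes.

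NM-FGF19 against HFD control compares groups on the same diet that received different mRNAs. The HFD control mRNA is labelled Control-mRNA under columns named mOX40L, so what NM-FGF19 is set against is not settled here. By edgeR again 0 of the 7 passed, where 0.282% of all genes were called higher and 0.151% lower. Elovl2, Fads1 and Scd2 were at an unadjusted p below 0.05, 3 of 7 against 8.95% of all genes. DESeq2 called Elovl2 and Fads1, both higher, and limma voom called 0. Elovl2 was higher without overlap, as were 3.23% of all genes, with 2.38% lower and 5.62% in either direction. The median log2 change was 0.10 over the 7 and -0.00 over all genes. This comparison and the diet comparison share the HFD control libraries.

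NM-FGF19 against lean combines diet and treatment. By edgeR 1 of the 7 passed, Elovl2, higher, where 1.01% of all genes were called higher and 0.484% lower. Lpcat3, Elovl2 and Fads2 were at an unadjusted p below 0.05, 3 of 7 against 16.7% of all genes. DESeq2 called Elovl2 and Fads2, both higher, and limma voom called Elovl2. Elovl2 alone was higher without overlap, where 5.46% of all genes were higher and 4.84% lower. The median log2 change was 0.29 over the 7 and -0.01 over all genes.

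**Figure D5:**
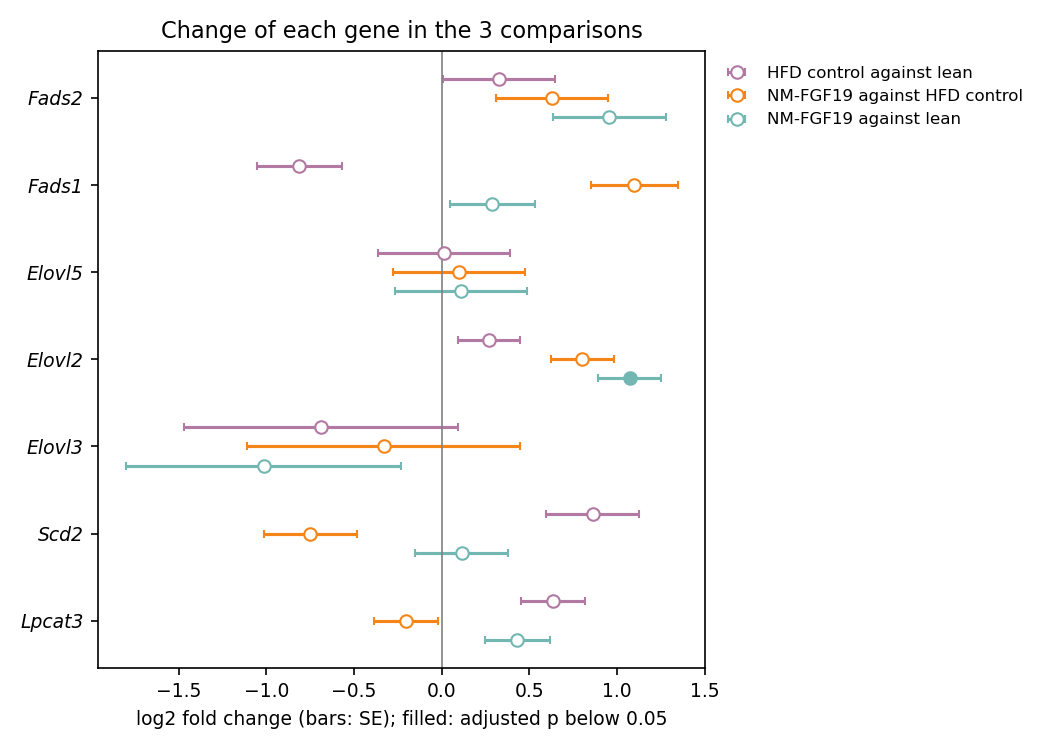
Log2 fold change of each of the 7 genes (horizontal axis) in the 3 comparisons, with bars for the SE and a filled point where the edgeR adjusted p was below 0.05. Elovl2 in NM-FGF19 against lean, at 1.07, is the 1 filled point, and the bars of Elovl3 are the widest.

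Library totals in place of TMM turned the sign of 1 member change, that of Elovl5 in NM-FGF19 against HFD control (-0.0365). The median log2 change of all genes then moved to 0.29, -0.13 and 0.17 in the 3 comparisons. Calls numbered 2383 higher and 228 lower for HFD control against lean instead of 770 and 502. They numbered 26 and 30 instead of 43 and 23 for NM-FGF19 against HFD control, and 346 and 52 instead of 154 and 74 for NM-FGF19 against lean.

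The rest of the pathway was followed in 9 lists of 72 genes, of which 62 were tested. In HFD control against lean 3 rose and 5 fell, 12.9% of the 62 against 8.33% of all genes tested. In NM-FGF19 against HFD control 1 rose and 1 fell, 3.23% against 0.432% of all genes. In NM-FGF19 against lean edgeR called 0 of 62, where 1.49% of all genes were called. Of the 62, 11 were at an unadjusted p below 0.05 there, against 16.7% of all genes. DESeq2 called 2 higher and 1 lower, and limma voom 0. The median log2 changes of the 62 were -0.01, 0.04 and 0.08.

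Control genes of sterol and fatty acid synthesis held 3 of the 8 diet calls and 1 of the 2 calls for NM-FGF19 against HFD control. In the list of 12 genes around SREBP-1c and LXR, 3 fell in HFD control against lean: Srebf2, which encodes the sterol-regulated SREBP-2, Insig1, which retains SREBPs in the endoplasmic reticulum, and Scap, their escort. Srebf2 fell by 1.06 on the log2 scale (SE 0.17, edgeR adjusted p 0.00566), from 79.7 to 38.2 CPM. Insig1 fell by 1.83 (SE 0.43, edgeR adjusted p 0.0250), from 302 to 85.1 CPM. Scap fell by 0.55 (SE 0.14, edgeR adjusted p 0.0343), from 135 to 92.7 CPM. All 3 are known for the control of sterol supply as well as of fatty acids.

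In NM-FGF19 against HFD control, Srebf2 was the 1 gene of that list that rose, by 0.93 ± 0.17 (SE) on the log2 scale to 72.9 CPM, with an edgeR adjusted p of 0.0312. Insig1 and Scap had log2 changes of 1.90 ± 0.43 and 0.55 ± 0.14 with edgeR adjusted p-values of 0.103 and 0.163, and did not pass. Without NM-FGF19 3, the library with the lowest Insig1 of its group at 94.2 CPM, Insig1 passed. Against lean, the log2 changes of Srebf2, Insig1 and Scap in NM-FGF19 were -0.13 ± 0.17, 0.07 ± 0.42 and -0.00 ± 0.14. The direction of Srebf2 there turned on library totals alone.

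Srebf1, the gene of SREBP-1c, averaged 183, 351 and 299 CPM, with log2 changes of 0.94 ± 0.36, -0.23 ± 0.35 and 0.71 ± 0.36 (SE) and edgeR adjusted p-values of 0.124, 0.924 and 0.342. Its groups did not overlap for HFD control against lean, where 8.4% of all genes were higher without overlap. Insig2, a further retention factor, had changes of -0.53, 0.11 and -0.42, and without lean 3 those against lean turned to 0.0502 for HFD control and 0.16 for NM-FGF19. Nr1h3, which encodes LXR alpha, had changes of -0.10, 0.22 and 0.12, and Ppara, a fatty acid sensor, 0.49, 0.07 and 0.56. None of Insig2, Nr1h3 and Ppara passed in any comparison, and each turned sign in at least 1 comparison under other scalings or without single libraries.

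Among the partners of the elongases and desaturases, 2 fell on the diet. Tecr, which completes each elongation cycle as the enoyl reductase, fell by 0.64 (SE 0.13, edgeR adjusted p 0.0139), from 209.9 to 134 CPM, the only call among 6 cycle partners. Cyb5r3, which passes electrons to cytochrome b5 for the desaturases, fell by 0.60 (SE 0.16, edgeR adjusted p 0.0411), from 683 to 451 CPM, the only call among 5 tested electron suppliers. Hsd17b12, the ketoreductase of the cycle, had log2 changes of -0.10, 0.08 and -0.02, each of which turned sign on library totals alone.

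Of the enzymes that shorten or process polyunsaturated chains, 3 rose on the diet. Acaa1b and Acaa1a, peroxisomal thiolases that serve the retroconversion of very long chains, were the 2 of 9 in their list that rose. Acaa1b rose 6.18-fold (log2 change 2.63, SE 0.36, edgeR adjusted p 0.00287), from 171 to 1057 CPM, and in NM-FGF19 against HFD control it fell by 2.14 (SE 0.36, edgeR adjusted p 0.0221) to 241 CPM. Acaa1a rose by 0.69 ± 0.20 with an edgeR adjusted p of 0.0494. The 2 are close copies, so a split of reads between them is uncertain. Ephx2, which hydrolyses epoxides of polyunsaturated fatty acids, rose by 0.72 ± 0.19 with an edgeR adjusted p of 0.0353, 1 of 10 tested in its list.

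Not all of these calls were steady. In fits that each left out 1 of the 12 libraries, the diet calls of Srebf2 and Acaa1b were kept each time and that of Tecr was lost without HFD control 1 (adjusted p 0.0512). The call of Ephx2 was lost in 6 fits, without lean 2, 3 or 4 or HFD control 2, 3 or 4 (up to 0.0907), and that of Insig1 in 6, without lean 2, 3 or 4 or HFD control 1, 3 or 4 (up to 0.0814). Scap kept its call only without lean 3, HFD control 2, NM-FGF19 2 or NM-FGF19 4 (otherwise up to 0.0931). Acaa1a kept it only without lean 1 or HFD control 2, and Cyb5r3 only without HFD control 3 or NM-FGF19 4 (otherwise up to 0.127 for both). In NM-FGF19 against HFD control, Srebf2 kept its call only without lean 1, lean 3 or NM-FGF19 3 (otherwise up to 0.131), and Acaa1b lost it without HFD control 1, 3 or 4 or NM-FGF19 1, 2 or 4 (up to 0.0802).

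The other 4 lists held no edgeR call in any comparison: other desaturases, other elongases, long-chain acyl-CoA synthetases and phospholipid acyltransferases. Elovl6, which elongates palmitate, averaged 73.9, 57.1 and 71.0 CPM, with log2 changes of -0.37, 0.31 and -0.06, the last of which turned on library totals alone. Elovl1, an elongase of very long saturated chains, had -0.41, 0.33 and -0.08, and the last turned likewise. Acsl4, the acyl-CoA synthetase that prefers arachidonic acid, averaged 76.2, 63.2 and 112 CPM in the lean, the HFD control and the NM-FGF19 livers. Its log2 changes were -0.27 ± 0.20, 0.82 ± 0.21 and 0.55 ± 0.20 (SE), with edgeR adjusted p-values of 0.454, 0.128 and 0.189. In that list 3 of 4 tested genes were at an unadjusted p below 0.05 for HFD control against lean, where 24.6% of all genes were. The count was again 3 of 4 for NM-FGF19 against HFD control, against 8.95% of all genes, and 2 of 4 for NM-FGF19 against lean, against 16.7%. In HFD control against lean 2 of the 4 were lower without overlap, as were 6.89% of all genes tested.

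Genes used as markers of other cell types differed between HFD control and lean livers. Of all genes tested, edgeR called 5.04% higher and 3.29% lower in that comparison. The 10 stellate cell and fibroblast markers summed to 206 to 272 CPM in lean, 472 to 1260.3 in HFD control and 328 to 1031 in NM-FGF19 libraries, and 5 of 10 rose in HFD control against lean. The 10 macrophage markers summed to 537 to 712, 358 to 936 and 274 to 526 CPM, with 3 higher and 2 lower in that comparison. Of 9 adipocyte markers 4 were tested and 3 rose (Cfd, Cidea and Cidec), with sums of 12.7 to 58.7 CPM in lean, 50.4 to 345 in HFD control and 28.2 to 93.0 in NM-FGF19 libraries. Plin1, Lep and Ucp1 were at 0 in all HFD control libraries, and whether Cfd, Cidea and Cidec came from adipocytes was not tested. Endothelial sums were 303 to 365, 340.2 to 402 and 331 to 396 CPM, with 2 of 8 higher on the diet (Pecam1 and Emcn). Cholangiocyte sums were 85.3 to 304, 51.6 to 145 and 56.5 to 146 CPM, with Sox9 lower, and lymphocyte sums stayed between 5.91 and 10.3 CPM. In NM-FGF19 against HFD control the adipocyte marker Cfd was called lower, as were 0.151% of all genes. In NM-FGF19 against lean, where Elovl2 passed, the stellate markers Col3a1 and Reln and the macrophage marker Gpnmb were called higher, as were 1.01% of all genes. There 8 of the 10 stellate and 5 of the 10 macrophage markers were at an unadjusted p below 0.05, against 16.7% of all genes. The part of these cells in the levels of the 7 genes was not tested.

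Genes whose log2 CPM across the 12 libraries was most like that of each member were taken from 11010 genes by Pearson correlation, as a description. Acsl5, an acyl-CoA synthetase, Acat2 and Chrna4 were most like Fads1, at 0.959, 0.938 and 0.938. Fads3, Cyp2a4 and Gtf3a were most like Fads2, at 0.907, 0.892 and 0.886. Itga1, Qpct and Fbh1 were most like Elovl2, at 0.892, 0.853 and 0.849, the lowest set of the 7. Cd4, Il6st and Mocos were most like Elovl3, at 0.938, 0.911 and 0.902. Lacc1, Bsg and Ccdc120 were most like Elovl5, at 0.946, 0.944 and 0.936. Pkm, Pik3r5 and Rab31 were most like Scd2, at 0.944, 0.939 and 0.935. Clec4a2, Ddah2 and Rpa1 were most like Lpcat3, at 0.958, 0.952 and 0.950. These points share libraries, group differences and scaling.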

How the data were processed

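RNA-seq of 12 mouse livers was analysed from the deposited table of raw counts per gene. Per the submitters' processing notes, the authors used Trimmomatic, STAR, featureCounts and the build mm39; for versions, annotation, strand mode and multi-mapped reads the entry is: not given in the sources used here. The kit is stranded, per the labels' protocols, but overlapping genes may share reads. All 12 columns were mapped by name. Symbols matched 52083 of 55359 IDs, and the rest held 0.515% of counts.

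The test for the 15274 genes passing filterByExpr (minimum count 10) was that of edgeR 4.0.16, R 4.3.3 (TMM scaling, robust quasi-likelihood F test, 2-sided, group as the only term, all 12 libraries in the fit, Benjamini-Hochberg adjustment, threshold 0.05). The SE is the one implied by the F statistic. RPKM used exon lengths of an older annotation, so no gene coordinates are given. Log2 CPM for spread and correlations used a prior count of 2, and ratios added 0.5 to each count and used exact permutation tests. Promoter sequences are RefSeq's, on GRCm38.p6. Of the steps, the edgeR fit was tested on simulated counts, for NM-FGF19 against HFD control alone. The alternatives included DESeq2 1.42.0 and voom of limma 3.58.1.

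The members and gene lists were chosen with earlier results of these data known. Named genes are the 7 members, 12 fixed neighbours (Scd1, Elovl6, Mboat7, Fads3, Srebf1, Insig1, Insig2, Nr1h3, Ppara, Elovl1, Hsd17b12 and Acsl4), up to 2 called genes per pathway list, comparison and direction with the smallest adjusted p, and the 3 genes most like each member. Scap, a further call in its list, and the marker, clock and Emg1 genes were named beside values they touch. Replicate numbers did not pair the samples.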

Additional observations from a re-analysis of the deposited data

Results flagged for a closer look

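By Dixon's ratio, with a critical value of 0.829 for groups of 4, Scd2 in CPM in lean livers was marked at 0.844. Lean 3, at 26.6 CPM, stood above the other 3 lean livers, which read 12.4 to 14.6 CPM. Of 21 groups of member levels in CPM this was the only one marked, and 0 of 36 groups of log2 levels and log2 ratios were. Chance marks about 1 in 20 groups. Scd1 was also highest in lean 3 of that group, at 14435 CPM. Without lean 3 the log2 change of Scd2 was 1.21 for HFD control against lean and 0.46 for NM-FGF19 against lean.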

How the results depend on the processing

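The main limits are 4 mice a group, an unknown hour of sampling and counts whose strand mode is not given. Elovl2 in NM-FGF19 against lean kept its call under all 23 alternatives. For HFD control against lean, members called higher went from 0 to 1 with RLE size factors, no filter, the stricter filter, limma voom or lean 3 and HFD control 3 left out, and to 2 on library totals alone or with DESeq2. Members called lower went from 0 to 1 with no filter, only the 2 groups in the fit or DESeq2. For NM-FGF19 against HFD control, members called higher went from 0 to 2 with no filter or DESeq2, and for NM-FGF19 against lean from 1 to 2 with DESeq2. Leaving out 1 library each gave 0 to 1 members higher and 0 to 1 lower on the diet, and 0 to 1 higher for NM-FGF19 against HFD control. The cause of these shifts was not tested. Shared replicate numbers do not mark shared mice: same-number libraries correlated at -0.43 to 0.12 in their deviations, and 0 of 12 libraries lay closest to their own number. With the replicate block the members' counts of calls did not change, while all calls fell to 384 and 209, 12 and 6, and 25 and 15.

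Pathway genes called higher on the diet (3) became 15 on library totals alone, 6 with the stricter filter, 9 with DESeq2, and 1 with the replicate block, with lean 3 and HFD control 3 left out or with the clock covariate. Those called lower (5) became 2 on library totals alone, with no filter or with the clock covariate, and 3 with the replicate block or with lean 3 and HFD control 3 left out. For NM-FGF19 against HFD control, the 1 higher became 2 with no filter, 5 with DESeq2 and 0 on library totals alone, with the replicate block, with only the 2 groups, with limma voom or with lean 3 and HFD control 3 left out. The 1 lower became 2 with DESeq2 and 0 with no filter, the replicate block or only the 2 groups. For NM-FGF19 against lean, 0 higher became 1 on library totals alone or in the fit without the robust option and 2 with DESeq2, and 0 lower became 1 with DESeq2. Leaving out 1 library gave 1 to 4 higher and 1 to 6 lower, 0 to 4 and 0 to 1, and 0 to 1 and 0 to 1 in the 3 comparisons.

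Changes that turned sign were near 0 or widely spread, and none of them was called. On library totals alone the log2 changes for HFD control against lean became 0.0575 (Acsl4), 0.14 (Fads3), 0.23 (Hsd17b12) and 0.20 (Nr1h3). For NM-FGF19 against HFD control they became -0.0365 (Elovl5), -0.0626 (Hsd17b12), -0.00613 (Insig2) and -0.0559 (Ppara), and for NM-FGF19 against lean 0.10 (Elovl1), 0.12 (Elovl6), 0.16 (Hsd17b12), 0.17 (Scap) and 0.0651 (Srebf2). Insig1 against lean in NM-FGF19 became -0.0410 with the replicate block and -0.0816 with limma voom, and Scap became 0.000229 with RLE, 0.0142 with no filter, 0.0140 with the stricter filter, 0.00272 with limma voom and 3.69e-05 with DESeq2. Insig2 became 0.37, -0.0934 and 0.27 in the 3 comparisons with the clock covariate, -0.000379 for NM-FGF19 against HFD control with limma voom, and 0.16 for NM-FGF19 against lean with lean 3 and HFD control 3 left out. Ppara became -0.0206 for NM-FGF19 against HFD control with those libraries left out.

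Leaving out 1 library at a time turned the sign of these log2 changes or log2 ratios. For HFD control against lean they were Elovl5 (-0.29 to 0.42), Fads3 (-0.26 to 0.0424), Hsd17b12 (-0.27 to 0.0233), Insig2 (-0.82 to 0.0502), Nr1h3 (-0.18 to 0.0419) and Elovl2 over Elovl5 (-0.13 to 0.59). For NM-FGF19 against HFD control they were Elovl3 (-1.06 to 0.60), Elovl5 (-0.25 to 0.41), Elovl6 (-0.0905 to 0.45), Hsd17b12 (-0.0456 to 0.25), Insig2 (-0.0857 to 0.36), Ppara (-0.0828 to 0.25), Srebf1 (-0.66 to 0.0567) and Elovl3 over Elovl6 (-1.28 to 0.0330). For NM-FGF19 against lean they were Elovl5 (-0.24 to 0.51), Scd2 (-0.0667 to 0.46), Elovl1 (-0.17 to 0.0886), Elovl6 (-0.46 to 0.13), Ephx2 (-0.00636 to 0.27), Hsd17b12 (-0.0881 to 0.0469), Insig1 (-0.27 to 0.39), Insig2 (-0.71 to 0.16), Scap (-0.0655 to 0.0618), Srebf2 (-0.26 to 0.0431) and Lpcat3 over Mboat7 (-0.00661 to 0.30). The Fads1 to Fads2 ratio kept its direction without any 1 library, at -1.22 to -1.05, 0.43 to 0.56 and -0.73 to -0.56, each with an exact permutation p of 0.0571, the smallest that 3 against 4 allow.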
